A study of Mus musculus with 20 samples.

Results

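The comparison set 4 libraries of GEM-PNST, malignant nerve sheath tumors of engineered mice, against 2 libraries of paraspinal tumor subgroup 2, and so used 6 of the 20 libraries of the series. The libraries were chosen by their titles alone. Both groups came from Ink4a/Arf+/-; Nf1fl/fl; DhhCre mice of strain C57BL/6J, in which 1 copy of Ink4a/Arf is lost throughout the animal and Cre under the Dhh promoter deletes floxed Nf1 from Schwann cell precursors onward. The read file names in the deposited sample sheet place all 6 libraries in 1 sequencing run, so they hold the last step to malignancy with no change of run. The 2 paraspinal subgroup 1 libraries of the same genotype and the 12 neurofibroma libraries, from Nf1fl/fl; DhhCre mice with intact Ink4a/Arf, entered the fit only so that the 4 groups shared 1 estimate of the spread.

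The labels call subgroup 2 a sub-cluster, and its members may therefore have been picked by their expression. They give no age, do not say whether any GEM-PNST was transplanted and leave unsaid whether different libraries mean different animals. The p-values therefore measure a spread between libraries. It was pooled over all 20 libraries, of which 12 are neurofibromas, and is not that of the 6 libraries compared alone. The codes of the 2 subgroup 2 libraries differ in 1 letter, and the code of GEM-PNST library 2 shares its stem with that of a subgroup 1 library. Values are given as counts per 1000000 counts (CPM) in the order GEM-PNST libraries 1, 2, 3 and 4, then subgroup 2 libraries 1 and 2. A log2 fold change is GEM-PNST over subgroup 2 and stands with its standard error, and a gene is said to have risen or fallen where the adjusted p of edgeR's quasi-likelihood test was below 0.05.

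Neurofibromas arise when Schwann cells, the glia that wrap the axons of peripheral nerves, lose Nf1, whose product neurofibromin is a GTPase-activating protein that switches RAS off. Paraspinal tumors grow at the nerve roots beside the spine, where the cell bodies of sensory neurons and their satellite glia sit in the dorsal root ganglia. Ink4a/Arf (Cdkn2a) encodes p16INK4a, an inhibitor of the cyclin D kinases that inactivate RB, and p19ARF, which stabilises p53, and malignant peripheral nerve sheath tumors are known for losing this locus together with Schwann cell identity.

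Total counts ran from 16282605 to 22218382 in GEM-PNST and from 18474071 to 24314222 in subgroup 2. Each group held libraries with the Y-linked Ddx3y (GEM-PNST 3 and 4, subgroup 2 library 1) and libraries with Xist (GEM-PNST 1 and 2, subgroup 2 library 2). The 2 subgroup 2 libraries, whose codes are alike, thus differed in sex. GEM-PNST library 2 had 245 CPM of Xist and 0 of Ddx3y. Subgroup 1 library 1, whose code shares its stem, had 0.166 and 34.9 CPM. In both pairs with like codes the libraries therefore came from different animals. Of the pairs among the 6 libraries, the 2 subgroup 2 libraries were the most alike, with a chi-square of 46.62 per degree of freedom, far above sampling noise. Over 10502 genes the median standard deviation of log2 CPM was 0.596 in GEM-PNST and 0.124 in subgroup 2, so GEM-PNST libraries differed far more among themselves. It was 0.334 in the 12 neurofibromas, whose spread enters the p-values. Each of 3 GEM-PNST libraries stood apart in its own way. Library 1 carried transcripts of antigen-presenting dendritic cells, with 33409.8, 350.1, 4079 and 1778 CPM of the MHC class II gene H2-Aa in GEM-PNST libraries 1 to 4, against 452 and 619 CPM in subgroup 2, and with 340.1, 0, 44.8 and 4.34 CPM of the dendritic cell receptor Xcr1 in GEM-PNST, against 1.41 and 2.71 CPM in subgroup 2. Library 3 carried salivary gland transcripts, with 0, 0, 27906 and 0.0804 CPM of the saliva protein gene Bpifa2 in GEM-PNST, against 0 and 0.0366 CPM in subgroup 2. Library 4 gave 11239.7, 7454, 3594 and 402636 CPM of the ribosomal RNA precursor Rn45s in GEM-PNST, against 8748 and 16399.9 CPM in subgroup 2, where library 4 is the last of the 4 values. These genes were chosen after their values were seen.

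Of 24062 genes, 17258 were tested and 2546 passed the threshold (14.8%), 916 higher (5.31%) and 1630 lower (9.44%) in GEM-PNST. The counts of list members below are to be read beside these shares. The median log2 fold change over all genes tested was 0.12. Of the genes that fell, 230 had 0 counts in all 4 GEM-PNST libraries, and of those that rose, 39 had 0 counts in both subgroup 2 libraries. Lower calls were kept more often than higher calls. When each of the 6 libraries was left out in turn, 718 of the 1630 lower calls (44%) and 25 of the 916 higher calls (2.73%) were kept in all 6 fits. Without subgroup 2 library 1, 937 genes were lower and 92 higher, and without subgroup 2 library 2, 814 were lower and 45 higher. Without GEM-PNST library 3, 2304 were lower and 1798 higher, without library 1, 1531 and 738, without library 2, 1741 and 1239, and without library 4, 1592 and 1133. A fit of the 8 GEM-PNST and paraspinal libraries alone, whose spread does not draw on the neurofibromas, called 433 lower and 6 higher. A fit of only the 6 libraries compared called 60 lower and 0 higher, with 2014 genes at an unadjusted p below 0.05. Of the genes called, 36% were higher by edgeR, 56.6% by DESeq2 and 48.2% by limma-voom with sample weights. In the text below a call is said to be kept where it held with each of the 6 libraries left out in turn.

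**Figure D1:**
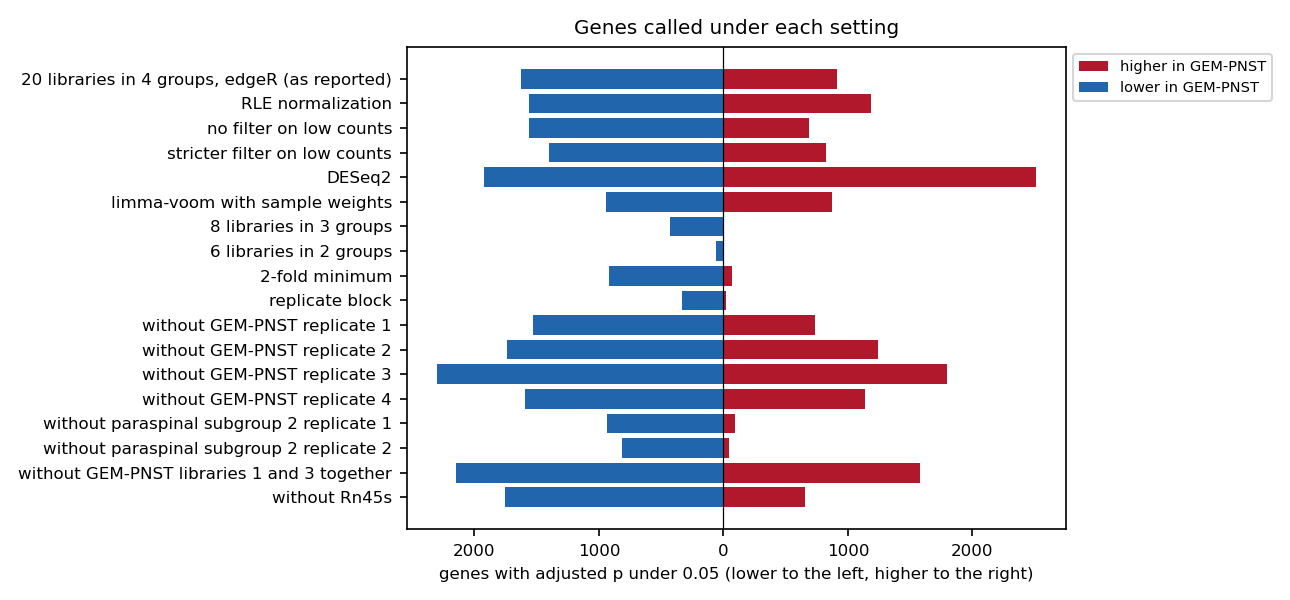
Number of genes with an adjusted p below 0.05 in GEM-PNST against paraspinal subgroup 2, higher and lower drawn apart, for the main fit of 20 libraries and for each other setting. Lower calls outnumber higher calls in all settings but DESeq2 (2509 higher, 1923 lower), and the fits of 8 and of 6 libraries hold 6 and 0 higher calls.

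**Figure D2:**
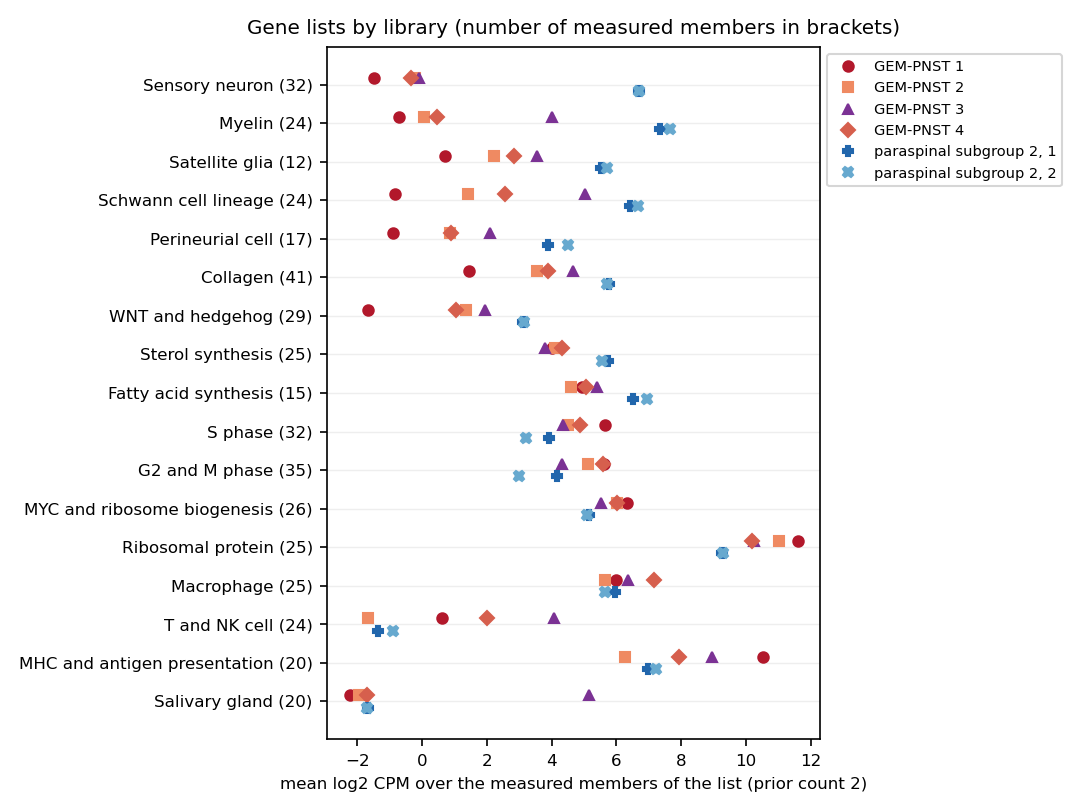
Mean log2 CPM over the measured members of 17 gene lists, with 1 point for each of the 4 GEM-PNST libraries and each of the 2 subgroup 2 libraries. Sensory neuron and myelin genes sit far lower in GEM-PNST, Schwann cell lineage genes are nearest to subgroup 2 in GEM-PNST library 3, and cell cycle and ribosomal protein genes sit higher in GEM-PNST.

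Nf1, floxed in both groups (chromosome 11, 79339590 to 79581609, GRCm38), had 30.4, 22.4, 25.4 and 26.3 CPM in GEM-PNST, against 40.7 and 36 CPM in subgroup 2. All 4 GEM-PNST libraries lay below both subgroup 2 libraries, and Nf1 fell in GEM-PNST (log2 fold change -0.55 ± 0.161, adjusted p = 0.0283). With libraries left out, adjusted p was 0.271 and 0.13 without subgroup 2 libraries 1 and 2 and 0.0114 to 0.0497 without each other library, and under RLE factors it was 0.0756. These are counts over the whole gene, so they do not show whether the floxed part was removed. Cdkn2a, the Ink4a/Arf locus (chromosome 4, 89274473 to 89294619), had 5.51, 0.538, 7.03 and 9.81 CPM in GEM-PNST, against 20.1 and 36.5 CPM in subgroup 2. The groups did not overlap, GEM-PNST library 2 was the lowest at near 0, and the difference missed the threshold (log2 fold change -2.31 ± 0.852, adjusted p = 0.074). Cdkn2b, the neighbouring gene for the cyclin D kinase inhibitor p15, had 30.3, 2.91, 51.1 and 73.2 CPM in GEM-PNST, against 60 and 76.3 CPM in subgroup 2 (adjusted p = 0.575), again lowest in library 2. Further along the same locus, the methylthioadenosine phosphorylase gene Mtap had 38.9, 268, 38.5 and 69.8 CPM in GEM-PNST, against 28.6 and 28.1 CPM in subgroup 2, and the non-coding gene Gm12603 had 0, 52.5, 0.247 and 10.1 CPM in GEM-PNST, against 0 and 0 CPM in subgroup 2. Gm12603 was at least 267-fold higher over the GEM-PNST group, against a floor of 3 counts over subgroup 2, and its adjusted p was 0.0193, or 0.13 and 0.16 without subgroup 2 libraries 1 and 2. Mtap and Gm12603 were highest in GEM-PNST library 2, where Cdkn2a and Cdkn2b were lowest. Mtap passed the threshold (log2 fold change 1.87 ± 0.574, adjusted p = 0.0357). For Mtap, adjusted p was 0.186 and 0.216 without subgroup 2 libraries 1 and 2 and 0.00757 to 0.04 without each other library, with a log2 fold change of 0.79 without library 2. Of the other genes around the locus, Focad had 3.7, 10.4, 10.6 and 8.53 CPM in GEM-PNST, against 12.9 and 13.9 CPM in subgroup 2 (adjusted p = 0.111), all 4 GEM-PNST libraries lying below subgroup 2. Klhl9 had 19, 31.8, 47.2 and 59.7 CPM in GEM-PNST, against 36.4 and 51.5 CPM in subgroup 2 (adjusted p = 0.766), with overlapping groups. Dmrta1 was highest in GEM-PNST library 2, with 0, 6.62, 0.297 and 0.402 CPM in GEM-PNST, against 0.195 and 0.623 CPM in subgroup 2 (adjusted p = 0.261). These neighbours, Mtap and Gm12603 were chosen after their values were seen.

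Sensory neuron transcripts, plentiful in subgroup 2, were nearly absent from GEM-PNST. Of 32 neuron genes tested, 29 fell and 0 rose, with a median log2 fold change of -7.05 beside 0.12 for all genes tested. Peripherin (Prph), the intermediate filament of sensory and autonomic neurons, had 0.269, 2.15, 2.13 and 0.322 CPM in GEM-PNST, against 648 and 598 CPM in subgroup 2, and it fell in GEM-PNST (log2 fold change -8.96 ± 1.37, adjusted p = 0.000338). The growth-associated stathmin Stmn2 had 0.538, 10.3, 2.77 and 4.5 CPM in GEM-PNST, against 488 and 556 CPM in subgroup 2 (log2 fold change -6.84 ± 1.09, adjusted p = 0.000492). Both subgroup 2 libraries stood far above the highest GEM-PNST library in both genes. Synuclein gamma (Sncg), abundant in sensory neurons, had 12.1, 3.71, 12.9 and 2.82 CPM in GEM-PNST, against 1062 and 1252 CPM in subgroup 2 (log2 fold change -7.20 ± 1.01, adjusted p = 0.000157). Scn10a, the sodium channel of pain-sensing neurons, had 0 counts in all 4 GEM-PNST libraries, against 139.6 and 112 CPM in subgroup 2, at least 2731-fold lower over the group against a floor of 3 counts. Prdm12, a transcription factor required for pain-sensing neurons, was also at 0 in GEM-PNST, against 36.1 and 40.2 CPM in subgroup 2, and was at least 847-fold lower. The capsaicin receptor Trpv1 had 1 count in GEM-PNST, and the ratio of subgroup 2 to GEM-PNST was 1062 (95% counting interval 190.1 to 42019).

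Not every neuron marker was absent. The neurofilament gene Nefl had 0, 13.8, 0 and 13.5 CPM in GEM-PNST, against 623 and 687 CPM in subgroup 2 (log2 fold change -6.58 ± 1.70, adjusted p = 0.0151), so 2 GEM-PNST libraries held none and the other 2 about 13 CPM. For Nefl, adjusted p was 0.0553 without subgroup 2 library 2 and 0.0132 to 0.045 without each other library. The neuronal tubulin Tubb3 had 2.55, 24.3, 144 and 26.9 CPM in GEM-PNST, against 1054 and 1274 CPM in subgroup 2, highest in library 3 (log2 fold change -4.55 ± 1.13, adjusted p = 0.0117). For Tubb3, adjusted p was 0.0579 without subgroup 2 library 2 and 0.00154 to 0.038 without each other library. Avil, Piezo2 and Gfra2 did not pass, and Avil, which encodes advillin, had 477, 8.94, 1.24 and 4.18 CPM in GEM-PNST, against 207 and 167 CPM in subgroup 2. Of the 29 losses, 26 were kept with each of the 6 libraries left out in turn, and all 29 with each GEM-PNST library left out. In the fits of 8 and of 6 libraries 21 and 8 members fell, with the replicate number as a block 10, and by limma-voom with sample weights 5. In these bulk libraries fewer cells of a type and less RNA per cell cannot be told apart. Whether ganglion tissue taken with the paraspinal tumors added to these transcripts was not tested, so a difference in site cannot be told from malignancy. The genes with 0 counts in GEM-PNST and the strongest loss outside the list were neuronal as well: Rph3a, which encodes rabphilin of synaptic vesicles, and Rab3c, a small GTPase of vesicle release, were at least 1932-fold and 1053-fold lower.

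**Figure D3:**
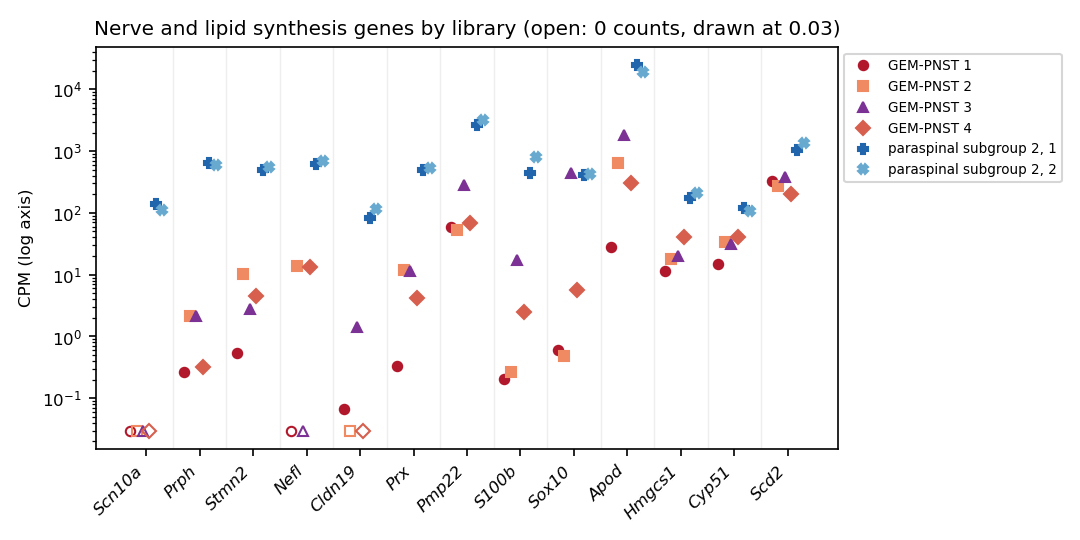
CPM on a log axis of 13 nerve and lipid synthesis genes, all of which but Sox10 fell in GEM-PNST. There is 1 point for each of the 4 GEM-PNST libraries and each of the 2 subgroup 2 libraries. Sox10 shows a GEM-PNST library at the level of subgroup 2 (436 CPM in library 3, against 411 and 428 CPM in subgroup 2), whereas Prph and Cldn19 are far lower in all 4 GEM-PNST libraries.

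Genes of the myelin sheath fell in GEM-PNST. Of 24 tested, 20 fell and 0 rose (median log2 fold change -5.19), all 24 had a negative log2 fold change, and 13 calls were kept. Periaxin (Prx), which links the Schwann cell to its matrix, had 0.336, 12.1, 11.3 and 4.26 CPM in GEM-PNST, against 497 and 526 CPM in subgroup 2 (log2 fold change -6.18 ± 0.977, adjusted p = 0.000446). Pmp22, a myelin membrane protein, had 58.9, 53.3, 279.8 and 68.6 CPM in GEM-PNST, against 2648 and 3129.6 CPM in subgroup 2 (log2 fold change -4.65 ± 0.727, adjusted p = 0.000407). GEM-PNST library 3 was the highest of the 4 for Pmp22 and stayed below both subgroup 2 libraries. Ugt8a, which makes the myelin lipid galactosylceramide, had 0, 0, 0.198 and 0 CPM in GEM-PNST, against 25.6 and 52.1 CPM in subgroup 2, and Cldn19, the tight junction claudin of myelin, had 0.0672, 0, 1.44 and 0 CPM in GEM-PNST, against 84 and 117 CPM in subgroup 2. Myelin basic protein (Mbp) had 145, 3.71, 54.6 and 19.5 CPM in GEM-PNST, against 1839 and 2738 CPM in subgroup 2 (log2 fold change -5.36 ± 0.978, adjusted p = 0.00136), where GEM-PNST library 1 was the highest of the 4.

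Egr2, the master regulator of myelination, had 1.14, 3.5, 26.2 and 2.57 CPM in GEM-PNST, against 76.3 and 63.5 CPM in subgroup 2 (log2 fold change -3.06 ± 0.814, adjusted p = 0.0181). Its log2 fold change was -4.85 without library 3. For Egr2, adjusted p was 0.0921 and 0.0719 without subgroup 2 libraries 1 and 2 and 4.42e-05 to 0.0373 without each other library. Pou3f1, which acts just before Egr2, had 0.202, 0.646, 34.7 and 1.77 CPM in GEM-PNST, against 25.9 and 43.3 CPM in subgroup 2, and did not pass (adjusted p = 0.262). Without library 3 all 24 myelin genes fell and the median log2 fold change was -8.03. Without subgroup 2 library 1, 14 fell, and without library 2, 13, and 4 fell in the fit of 8 libraries.

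Markers of the Schwann cell lineage, a list that shares members with the myelin list, were far below subgroup 2 in 3 of the 4 GEM-PNST libraries. The summed CPM of the 24 list members was 36.0, 579, 2407 and 495 in GEM-PNST, against 7475 and 10143 in subgroup 2. Library 1, the lowest, is the one with the dendritic cell transcripts, whose part was not tested. S100b, the calcium-binding protein used to stain Schwann cells, had 0.202, 0.269, 17.4 and 2.49 CPM in GEM-PNST, against 436 and 791 CPM in subgroup 2 (log2 fold change -6.90 ± 1.11, adjusted p = 0.00052). Sox10, the transcription factor that defines the lineage, had 0.605, 0.484, 436 and 5.63 CPM in GEM-PNST, against 411 and 428 CPM in subgroup 2. Library 3 held as much Sox10 as subgroup 2 and the other 3 libraries held less than 6 CPM, so the groups overlapped and the test did not pass (log2 fold change -1.92 ± 1.40, adjusted p = 0.36). Without library 3 the log2 fold change of Sox10 was -7.57 (adjusted p = 7.74e-06), and with any other library left out adjusted p lay between 0.424 and 0.585. Ngfr, the low-affinity neurotrophin receptor, had 0.134, 0.161, 58.5 and 0.804 CPM in GEM-PNST, against 185 and 155 CPM in subgroup 2, and Foxd3, a neural crest factor, had 0.0672, 0.431, 71.1 and 1.53 CPM in GEM-PNST, against 52 and 69.4 CPM in subgroup 2, each again highest of GEM-PNST in library 3. Neither passed with all libraries (adjusted p = 0.095 for Ngfr, 0.369 for Foxd3).

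Of the 24 lineage genes 7 fell and 0 rose (median log2 fold change -2.25), and 16 fell without library 3 (median -6.48). The calls of S100b and Fabp7 were among those kept. Fabp7, the fatty acid binding protein of immature glia, had 1.21, 0, 4.4 and 0.724 CPM in GEM-PNST, against 108 and 169 CPM in subgroup 2 (log2 fold change -6.42 ± 1.05, adjusted p = 0.00062). The neuregulin receptor Erbb3 had 0.269, 0, 7.13 and 1.21 CPM in GEM-PNST, against 19.9 and 16.7 CPM in subgroup 2 (log2 fold change -3.06 ± 0.941, adjusted p = 0.0361), with -5.30 without library 3. For Erbb3, adjusted p was 0.0632 and 0.0689 without GEM-PNST libraries 1 and 4, 0.154 and 0.135 without subgroup 2 libraries 1 and 2 and 0.000262 to 0.0308 without each other library. Ncam1 and Gap43 did not pass and varied widely among GEM-PNST. The adhesion gene Ncam1 had 0.202, 101, 129 and 78.8 CPM in GEM-PNST, against 278 and 268 CPM in subgroup 2 (adjusted p = 0.176), lowest in library 1, and Gap43, a growth cone protein, had 0, 109, 8.91 and 15.4 CPM in GEM-PNST, against 69.6 and 108 CPM in subgroup 2 (adjusted p = 0.501).

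Of 19 genes of repair Schwann cells, the state that follows nerve injury, 3 fell and 0 rose (median log2 fold change -0.93). The median was -0.52 without GEM-PNST library 1, -1.59 without library 2 and -0.54 without subgroup 2 library 1. Sonic hedgehog (Shh) had 0 counts in all 4 GEM-PNST libraries, against 39.6 and 22 CPM in subgroup 2, and was at least 651-fold lower. Neurocan (Ncan) was also at 0 in GEM-PNST, against 2.63 and 2.86 CPM in subgroup 2, at least 60.8-fold lower. Both calls were kept. Without GEM-PNST libraries 2 and 3, 5 and 6 members fell, and without library 1 or either subgroup 2 library, 2. Gfap, the filament of non-myelinating Schwann cells and of glia, had 0.403, 0, 22.1 and 0.161 CPM in GEM-PNST, against 211 and 183 CPM in subgroup 2 (log2 fold change -5.10 ± 1.49, adjusted p = 0.0287), -10.0 without library 3. For Gfap, adjusted p was 0.0528 without GEM-PNST library 1, 0.0972 and 0.0966 without subgroup 2 libraries 1 and 2 and 9.81e-05 to 0.048 without each other library. Jun, which drives the repair state, had 60.5, 227, 102 and 187 CPM in GEM-PNST, against 182 and 172 CPM in subgroup 2, and did not pass (adjusted p = 0.642).

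The other cell types of nerve and ganglion moved in the same direction where they passed. Of 12 satellite glia genes 8 fell and 0 rose (median -3.08), and 4 calls were kept. Without GEM-PNST library 2 or subgroup 2 library 1, 5 members fell, and without subgroup 2 library 2, 4. Brevican (Bcan), a glial matrix proteoglycan, had 0.0672, 0.269, 0.0495 and 0.0804 CPM in GEM-PNST, against 28.6 and 44.8 CPM in subgroup 2 (log2 fold change -8.17 ± 1.01, adjusted p = 6.21e-05). The glutamate transporter Slc1a3 had 0.672, 0.484, 5.54 and 0.643 CPM in GEM-PNST, against 20.4 and 24.8 CPM in subgroup 2 (log2 fold change -3.59 ± 0.761, adjusted p = 0.00446). Apoe, abundant in satellite glia and macrophages alike, had 6604, 3345, 6881 and 9555 CPM in GEM-PNST, against 3625 and 4341 CPM in subgroup 2 (adjusted p = 0.316). Of 17 perineurial genes, which mark the sheath around nerve fascicles, 8 fell and 0 rose (median -3.02), 11 without library 3, and 6 and 5 without subgroup 2 libraries 1 and 2. Sgpp2, a sphingosine phosphate phosphatase, had 0, 0.269, 0.0495 and 0.161 CPM in GEM-PNST, against 27.2 and 29.4 CPM in subgroup 2 (log2 fold change -7.78 ± 0.847, adjusted p = 1.88e-05), and Wnt6, a secreted WNT ligand, had 2.22, 2.15, 5.39 and 0.402 CPM in GEM-PNST, against 24.1 and 44.2 CPM in subgroup 2 (log2 fold change -3.73 ± 0.613, adjusted p = 0.000628). Slc2a1, the glucose transporter that the list also holds, had 85.1, 545, 20.6 and 98.7 CPM in GEM-PNST, against 123 and 172 CPM in subgroup 2, and did not pass.

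Nerve fibroblast genes included Apod, the most abundant transcript of subgroup 2 among all genes that fell. Of 24 tested, 4 fell and 0 rose (median -0.38). The median was -0.016 without GEM-PNST library 1, -0.093 without library 2, -1.38 without library 3 and -0.11 without subgroup 2 library 1. Apod, which encodes a lipocalin made by endoneurial fibroblasts and Schwann cells, had 28, 641, 1846 and 299 CPM in GEM-PNST, against 24514 and 19018 CPM in subgroup 2 (log2 fold change -4.95 ± 1.05, adjusted p = 0.00459). The WNT inhibitor Wif1 had 0, 0, 0.693 and 0 CPM in GEM-PNST, against 156 and 45.6 CPM in subgroup 2 (log2 fold change -8.97 ± 1.53, adjusted p = 0.000817). Both calls were kept, and library 3 was the highest GEM-PNST library for both, with a log2 fold change of -13.70 for Wif1 without it. The glypican Gpc3 had 0.336, 0.431, 50.1 and 0.724 CPM in GEM-PNST, against 389 and 393 CPM in subgroup 2 (log2 fold change -4.91 ± 1.29, adjusted p = 0.0166). Without library 3 the log2 fold change of Gpc3 was -9.62. For Gpc3, adjusted p was 0.057 and 0.0661 without subgroup 2 libraries 1 and 2 and 4.58e-07 to 0.029 without each other library. The chemokine Ccl11 had 0.0672, 2.64, 63.3 and 29.4 CPM in GEM-PNST, against 378 and 403 CPM in subgroup 2 (log2 fold change -4.03 ± 1.20, adjusted p = 0.031). For Ccl11, adjusted p was 0.05 and 0.0502 without GEM-PNST libraries 2 and 4, 0.1 and 0.125 without subgroup 2 libraries 1 and 2 and 0.00884 to 0.0239 without each other library. Decorin (Dcn) had 0.47, 354, 1019 and 439 CPM in GEM-PNST, against 2591 and 2949.9 CPM in subgroup 2 (adjusted p = 0.117). GEM-PNST library 1 was the lowest of the 4 for 21 of the 24 genes, the library that carried the dendritic cell transcripts. Without library 3 7 members fell, and without either subgroup 2 library 2 did.

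Of 25 genes of cholesterol synthesis, 13 fell in GEM-PNST and 0 rose (median log2 fold change -1.42). In 18 of the 25 all 4 GEM-PNST libraries lay below both subgroup 2 libraries, beside 19.1% of all genes tested. Of the 25, 3 had a positive log2 fold change. The summed CPM of the list was 1012, 763, 548 and 681 in GEM-PNST, against 2062 and 1898 in subgroup 2. Hmgcs1, which makes HMG-CoA at the head of the pathway, had 11.4, 18.2, 19.7 and 40 CPM in GEM-PNST, against 177 and 208 CPM in subgroup 2 (log2 fold change -3.11 ± 0.52, adjusted p = 0.000703). Cyp51, the lanosterol demethylase, had 15.1, 33.6, 30.9 and 41.1 CPM in GEM-PNST, against 118 and 106 CPM in subgroup 2 (log2 fold change -1.89 ± 0.323, adjusted p = 0.000763). The groups stood clear of each other in both genes, and their calls were kept, as were those of Msmo1 and Idi1. Squalene epoxidase (Sqle) had 28.9, 21, 18.2 and 26.4 CPM in GEM-PNST, against 115 and 92.9 CPM in subgroup 2 (log2 fold change -2.14 ± 0.49, adjusted p = 0.00737). For Sqle, adjusted p was 0.0673 without subgroup 2 library 1 and 0.0115 to 0.0342 without each other library. Srebf2, the transcription factor of the pathway, had 396, 64.8, 68.8 and 73.1 CPM in GEM-PNST, against 129 and 109.8 CPM in subgroup 2 (adjusted p = 0.713), high in GEM-PNST library 1 and below subgroup 2 in the other 3.

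The sterol losses held in the fit of 8 libraries (8 genes), and 11 of the 13 held with each GEM-PNST library left out. They numbered 6 and 7 without subgroup 2 libraries 1 and 2, and 0 in the fit of 6 libraries and with the replicate block. Of 15 fatty acid genes 4 fell and 0 rose (median -1.34), all 15 with a negative log2 fold change. Stearoyl-CoA desaturase Scd2 had 331, 271, 378 and 200.0 CPM in GEM-PNST, against 1026 and 1349.9 CPM in subgroup 2 (log2 fold change -2.01 ± 0.304, adjusted p = 0.000308), and the delta-6 desaturase Fads2 had 10.3, 1.72, 6.83 and 6.27 CPM in GEM-PNST, against 48.3 and 34.8 CPM in subgroup 2 (log2 fold change -2.73 ± 0.448, adjusted p = 0.000628). The acetyl-CoA synthetase Acss2 had 6.85, 3.23, 9.06 and 3.3 CPM in GEM-PNST, against 34.4 and 44.3 CPM in subgroup 2 (log2 fold change -2.81 ± 0.602, adjusted p = 0.00482). These 3 calls were kept. Scd1 had 93.1, 122, 344 and 99.9 CPM in GEM-PNST, against 629 and 953 CPM in subgroup 2 (adjusted p = 0.0683), and fatty acid synthase (Fasn) had 85.3, 118, 63.4 and 85.8 CPM in GEM-PNST, against 159.7 and 218 CPM in subgroup 2 (adjusted p = 0.515), both lower in every GEM-PNST library without passing.

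Genes of Schwann cells, which make myelin lipid, and sterol genes were both lower in GEM-PNST. GEM-PNST library 3, where Sox10 stood at 436 CPM, had the lowest summed CPM of the sterol list. In this library the summed CPM of the myelin list was 1297, against 11789 and 15322 in subgroup 2. That of the Schwann cell lineage list was 2407, against 7475 and 10143. Whether the sterol change is more than the loss of Schwann cells was not tested. The promoter of Hmgcs1 carries the letters of a sterol response element (TCACNCCAC, searched on both strands in the 250 bases before the start), the site through which SREBP factors act. A stretch of it (RefSeq, GRCm38.p6, chr13:119690188-119690247, + strand) is shown, since of the sterol genes in the RefSeq table only Hmgcs1 held the match. Hmgcs1 also had the smallest p of the list. The capitals mark the match, which begins 137 bases before the start.
Hmgcs1 promoter: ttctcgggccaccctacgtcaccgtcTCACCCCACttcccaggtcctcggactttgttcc
Of the 17 sterol genes with a promoter in the RefSeq table, 1 (5.88%) held this match, against 331 of all 27025 genes (1.22%).

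Cell cycle genes were higher in GEM-PNST, and none of their calls was kept without subgroup 2 library 2. Of 32 S phase genes, 15 rose and 0 fell (median log2 fold change 1.44), all 32 had a positive log2 fold change, and in 24 of 32 the GEM-PNST libraries all lay above subgroup 2, beside 13.7% of all genes tested. Orc1, the largest subunit of the origin recognition complex, had 4.7, 1.83, 1.48 and 3.06 CPM in GEM-PNST, against 0.633 and 0.183 CPM in subgroup 2 (log2 fold change 2.76 ± 0.61, adjusted p = 0.00571). Thymidylate synthase (Tyms), which makes dTMP, had 102, 42.4, 45.5 and 49.8 CPM in GEM-PNST, against 25 and 12.8 CPM in subgroup 2 (log2 fold change 1.66 ± 0.384, adjusted p = 0.00756). The chromatin assembly factor Chaf1a had 56.1, 21.9, 26.2 and 25.6 CPM in GEM-PNST, against 13 and 6.93 CPM in subgroup 2 (log2 fold change 1.70 ± 0.412, adjusted p = 0.0101). In these 3 genes subgroup 2 library 2 was the lowest library, and GEM-PNST library 1 the highest. For Orc1, Tyms and Chaf1a adjusted p was 0.114, 0.151 and 0.176 without subgroup 2 library 2 and from 0.00188 to 0.0232 without each of the other libraries. The replicative helicase subunit Mcm5 had 142, 55.7, 37.2 and 57.9 CPM in GEM-PNST, against 26.9 and 13.1 CPM in subgroup 2 (log2 fold change 1.87 ± 0.517, adjusted p = 0.0216). For Mcm5, adjusted p was 0.249 without subgroup 2 library 2 and 0.00648 to 0.0482 without each other library.

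Of 35 genes of G2 and M phase 10 rose and 0 fell (median 1.58), and all 35 had a positive log2 fold change. Survivin (Birc5), of the chromosomal passenger complex, had 118, 56.8, 43.4 and 80.8 CPM in GEM-PNST, against 29.9 and 16.1 CPM in subgroup 2 (log2 fold change 1.70 ± 0.432, adjusted p = 0.0134). For Birc5, adjusted p was 0.198 without subgroup 2 library 2 and 0.00391 to 0.0309 without each other library. The centromeric histone Cenpa had 115, 84.5, 40.6 and 77.1 CPM in GEM-PNST, against 19.5 and 12 CPM in subgroup 2 (log2 fold change 2.33 ± 0.622, adjusted p = 0.0182). For Cenpa, adjusted p was 0.0851 and 0.205 without subgroup 2 libraries 1 and 2 and 0.00704 to 0.0348 without each other library. The proliferation marker Mki67 had 236, 56, 69 and 122 CPM in GEM-PNST, against 57.5 and 24.1 CPM in subgroup 2, and did not pass (log2 fold change 1.57 ± 0.88, adjusted p = 0.23), and its GEM-PNST library 2 lay just below subgroup 2 library 1. Subgroup 2 library 1 was above library 2 in the mean of both lists, with a mean log2 CPM of 3.91 and 3.20 for S phase and 4.16 and 3.01 for G2 and M phase. S phase calls numbered 9 without subgroup 2 library 1 and 0 without library 2, and those of G2 and M phase 7 and 0. Without GEM-PNST library 1 they were 8 and 6, and in the fits of 8 and of 6 libraries and with the replicate block 0 and 0, while DESeq2 called 25 and 18. GEM-PNST library 1 was the highest of the 4 in 27 of the 32 S phase genes, and library 3 the lowest in 30 of the 35 genes of G2 and M phase.

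E2F factors, which RB holds back, bind the promoters of many S phase genes, and the letters of an E2F site (TTTCCCGC, TTTGGCGC or TTTCGCGC, both strands, 250 bases before the start) were sought in the same RefSeq table. They were present in 8 of 26 S phase genes (30.77%), including 5 of the 13 that rose and have an entry (38.46%), in 1 of 28 genes of G2 and M phase (3.57%) and in 480 of all 27025 genes (1.78%). A match is a description of the letters only. The stretches of the origin gene Orc1 and of 3 helicase subunits, all of which rose, are shown 5′ to 3′ on the strand of the gene with the matches in capitals (GRCm38.p6; Orc1 chr4:108579394-108579453, + strand; Mcm5 chr8:75109330-75109389, + strand; Mcm6 chr1:128359782-128359841, - strand; Mcm7 chr5:138172015-138172074, - strand).
Orc1 promoter: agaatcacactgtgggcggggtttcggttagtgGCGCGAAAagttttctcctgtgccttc
Mcm5 promoter: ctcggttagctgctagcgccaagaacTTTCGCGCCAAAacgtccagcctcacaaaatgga
Mcm6 promoter: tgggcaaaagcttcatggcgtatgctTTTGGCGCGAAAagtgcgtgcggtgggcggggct
Mcm7 promoter: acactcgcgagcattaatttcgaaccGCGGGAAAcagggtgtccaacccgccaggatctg
The match begins 27 bases before the start in Orc1, 153 in Mcm5, 110 in Mcm6 and 165 in Mcm7, and in Mcm5 and Mcm6 matches on the 2 strands overlap. Mcm6 had 146, 93, 51.6 and 99.9 CPM in GEM-PNST, against 36 and 19.6 CPM in subgroup 2 (log2 fold change 1.81 ± 0.533, adjusted p = 0.0293), and Mcm7 had 185, 101, 55 and 84.5 CPM in GEM-PNST, against 44.3 and 30 CPM in subgroup 2 (log2 fold change 1.52 ± 0.448, adjusted p = 0.0299). For Mcm6, adjusted p was 0.0595 without GEM-PNST library 1, 0.0759 and 0.271 without subgroup 2 libraries 1 and 2 and 0.0106 to 0.0397 without each other library. For Mcm7, adjusted p was 0.0675 without GEM-PNST library 1, 0.0952 and 0.261 without subgroup 2 libraries 1 and 2 and 0.00764 to 0.0344 without each other library.

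Upstream of E2F, the cyclin D kinase Cdk4 had 265, 551, 227 and 354 CPM in GEM-PNST, against 195 and 143 CPM in subgroup 2, highest in library 2, and it rose (log2 fold change 1.05 ± 0.334, adjusted p = 0.0414). For Cdk4, adjusted p was 0.0809 and 0.055 without GEM-PNST libraries 2 and 4, 0.11 and 0.306 without subgroup 2 libraries 1 and 2 and 0.0127 to 0.0328 without each other library. E2f4, the repressor E2F of resting cells, had 98, 191, 57.2 and 109.6 CPM in GEM-PNST, against 45.9 and 37.9 CPM in subgroup 2 (log2 fold change 1.44 ± 0.355, adjusted p = 0.0112). For E2f4, adjusted p was 0.0656 and 0.14 without subgroup 2 libraries 1 and 2 and 0.000906 to 0.0192 without each other library. The inhibitor Cdkn1a, a p53 target that stops the cycle, had 68.5, 155, 72.1 and 51.6 CPM in GEM-PNST, against 223 and 263 CPM in subgroup 2, and fell (log2 fold change -1.48 ± 0.426, adjusted p = 0.0262). For Cdkn1a, adjusted p was 0.0506 without GEM-PNST library 1, 0.096 and 0.192 without subgroup 2 libraries 1 and 2 and 0.0046 to 0.0497 without each other library. Cyclin D1 (Ccnd1) had 485, 383, 669 and 649.7 CPM in GEM-PNST, against 678 and 791 CPM in subgroup 2 (adjusted p = 0.777). Of 20 genes of the RB pathway 2 rose and 1 fell (median 0.44, or 0.26 without GEM-PNST library 2). Of 22 genes of the p53 pathway 2 rose and 2 fell (median 0.0039, and -0.11 to 0.066 with each library left out in turn). Trp53 itself had 233, 259, 100 and 184 CPM in GEM-PNST, against 94.9 and 76.5 CPM in subgroup 2, and rose (log2 fold change 1.18 ± 0.335, adjusted p = 0.0252). For Trp53, adjusted p was 0.101 and 0.226 without subgroup 2 libraries 1 and 2 and 0.0022 to 0.048 without each other library. Mdm2, a p53 target that degrades p53, had 45.6, 73.3, 54.2 and 47.9 CPM in GEM-PNST, against 54.3 and 59 CPM in subgroup 2, and did not pass (adjusted p = 0.932). Without either subgroup 2 library no gene of these 2 lists passed, and 5 p53 pathway genes were lower without GEM-PNST library 3.

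Genes of ribosome biogenesis rose as well. Of 26 genes of MYC and ribosome biogenesis 14 rose and 0 fell (median 0.90). Nucleophosmin (Npm1), a nucleolar chaperone of ribosome assembly, had 758, 479.8, 362 and 698 CPM in GEM-PNST, against 196 and 198 CPM in subgroup 2 (log2 fold change 1.54 ± 0.285, adjusted p = 0.00147). Wdr43, of the small subunit processome, had 107, 65.6, 71.1 and 66.2 CPM in GEM-PNST, against 35.6 and 33.6 CPM in subgroup 2 (log2 fold change 1.16 ± 0.233, adjusted p = 0.00288). In both genes each GEM-PNST library was well above both subgroup 2 libraries, and both calls were kept. Myc had 109, 69.7, 27.4 and 87.1 CPM in GEM-PNST, against 25 and 25.1 CPM in subgroup 2 (log2 fold change 1.55 ± 0.462, adjusted p = 0.0315), lowest in library 3. For Myc, adjusted p was 0.0694 and 0.0517 without GEM-PNST libraries 1 and 4, 0.18 and 0.202 without subgroup 2 libraries 1 and 2 and 0.00285 to 0.0359 without each other library. Fibrillarin (Fbl), which methylates ribosomal RNA, had 863, 158, 97.7 and 149 CPM in GEM-PNST, against 67.3 and 54.4 CPM in subgroup 2 (log2 fold change 2.38 ± 0.628, adjusted p = 0.017), and its log2 fold change was 1.15 without GEM-PNST library 1. For Fbl, adjusted p was 0.104 and 0.168 without subgroup 2 libraries 1 and 2 and 0.00249 to 0.0113 without each other library. The number of list members that rose was 3 and 2 without subgroup 2 libraries 1 and 2, 10 without GEM-PNST library 1, 20 without library 3, and 0 in the fits of 8 and of 6 libraries and with the replicate block.

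Of 25 ribosomal protein genes 24 rose (median 1.55). In all 25 the GEM-PNST libraries lay above subgroup 2, beside 13.7% of all genes tested. Rpl3 had 3025, 2029, 1169 and 1316 CPM in GEM-PNST, against 657 and 680.2 CPM in subgroup 2, and was the only list member whose call was kept (log2 fold change 1.50 ± 0.311, adjusted p = 0.00383). Rps6, the ribosomal protein phosphorylated downstream of mTOR, had 1842, 1207, 677 and 815 CPM in GEM-PNST, against 376 and 407 CPM in subgroup 2 (log2 fold change 1.54 ± 0.322, adjusted p = 0.00404). For Rps6, adjusted p was 0.0563 without subgroup 2 library 1 and 0.000482 to 0.0462 without each other library. The summed CPM of the list was 81951, 54201, 32407 and 30667 in GEM-PNST, against 16374 and 16698 in subgroup 2, and library 1 was the highest in 24 of the 25 genes. Without subgroup 2 libraries 1 and 2, 4 and 2 members rose, 15 by limma-voom with sample weights, and 0 in the fits of 8 and of 6 libraries, with a 2-fold minimum and with the replicate block. Ribosomal protein genes have many near-identical processed copies, so how the authors' counting split their reads is uncertain.

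The 25 genes whose rise was kept with each of the 6 libraries left out include regulators of transcription and RNA, DNA repair and metabolism. They were picked by that criterion after the values were seen. Fam60a, a subunit of the SIN3 deacetylase complex, had 12.3, 13.8, 8.07 and 15.9 CPM in GEM-PNST, against 2.63 and 2.16 CPM in subgroup 2 (log2 fold change 2.38 ± 0.314, adjusted p = 9.76e-05). Mre11a, the nuclease that senses DNA breaks, had 17.6, 14, 14.9 and 16.2 CPM in GEM-PNST, against 6.67 and 5.68 CPM in subgroup 2 (log2 fold change 1.34 ± 0.217, adjusted p = 0.00052), and Xrcc3, a protein of homologous recombination, had 15.1, 8.29, 12.9 and 6.19 CPM in GEM-PNST, against 2.43 and 1.98 CPM in subgroup 2 (log2 fold change 2.26 ± 0.41, adjusted p = 0.00127). In these 3 genes the lowest GEM-PNST library was clear of both subgroup 2 libraries. Shmt2, the mitochondrial serine hydroxymethyltransferase that feeds one-carbon metabolism, had 167, 133, 76.8 and 158 CPM in GEM-PNST, against 48.3 and 36.9 CPM in subgroup 2 (log2 fold change 1.65 ± 0.297, adjusted p = 0.00121). Nudt21, a cleavage factor that chooses polyadenylation sites, had 119, 75.4, 44.9 and 62.2 CPM in GEM-PNST, against 21.6 and 23.4 CPM in subgroup 2 (log2 fold change 1.74 ± 0.296, adjusted p = 0.000749). Tes, the focal adhesion protein testin, had 59.1, 176, 41.3 and 194 CPM in GEM-PNST, against 15.7 and 12.8 CPM in subgroup 2 (log2 fold change 3.04 ± 0.547, adjusted p = 0.00122), with libraries 2 and 4 well above libraries 1 and 3. Coro1b, a coronin of actin turnover, had 642, 467, 321 and 342 CPM in GEM-PNST, against 173 and 162 CPM in subgroup 2 (log2 fold change 1.40 ± 0.255, adjusted p = 0.00126), and the translation factor Eif4b had 749, 452, 245 and 412 CPM in GEM-PNST, against 160.2 and 172 CPM in subgroup 2 (log2 fold change 1.48 ± 0.297, adjusted p = 0.00288). The others were Helz, Nme4, Xpo4, Pola2, Raver1, Patl1, Npm1, Wdr43, Krt18, Zfp951, Klra18, the ribosomal protein genes Rpl3, Rps20 and Rps26, and the transcripts Gm14325, Gm14326 and Etohi1. Klra18, Gm14325 and Gm14326 belong to families of near-identical copies, so their counts are uncertain. Gm14325, Gm14326 and Etohi1 had 0 counts in GEM-PNST library 1 and in both subgroup 2 libraries, so the groups overlapped. Etohi1 reached at most 0.99 CPM in GEM-PNST. The means of these transcripts in the neurofibromas, whose spread enters the fit, were 32.7, 21.6 and 42.6 CPM.

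The 6 genes called higher in the fit of the 8 GEM-PNST and paraspinal libraries were Glipr1, Limd2, Krt18, Pola2, Apbb1ip and Bmf, a set picked by that fit. Pola2, the regulatory subunit of DNA polymerase alpha, had 52.5, 40.9, 30.9 and 41.5 CPM in GEM-PNST, against 14 and 14.6 CPM in subgroup 2 (log2 fold change 1.54 ± 0.302, adjusted p = 0.00249), and its call was kept. Limd2, a LIM domain protein, had 158, 249, 206 and 197 CPM in GEM-PNST, against 65.6 and 52.1 CPM in subgroup 2 (log2 fold change 1.78 ± 0.534, adjusted p = 0.0318). Bmf, a BH3-only protein of the BCL2 family that promotes cell death, had 62, 69.4, 45.8 and 41.4 CPM in GEM-PNST, against 15.7 and 18.1 CPM in subgroup 2 (log2 fold change 1.70 ± 0.477, adjusted p = 0.0239). For Limd2, adjusted p was 0.139 and 0.235 without subgroup 2 libraries 1 and 2 and 0.0302 to 0.0464 without each other library. For Bmf, adjusted p was 0.175 and 0.148 without subgroup 2 libraries 1 and 2 and 0.0172 to 0.0404 without each other library. Apbb1ip, a RAP1 effector that activates integrins in blood cells, had 163, 83.8, 65.8 and 95.6 CPM in GEM-PNST, against 15.2 and 12.6 CPM in subgroup 2 (log2 fold change 2.87 ± 0.862, adjusted p = 0.0321). For Apbb1ip, adjusted p was 0.0591 without GEM-PNST library 1, 0.174 and 0.233 without subgroup 2 libraries 1 and 2 and 0.0213 to 0.0402 without each other library. Glipr1 had 274, 169, 39.6 and 141 CPM in GEM-PNST, against 8.86 and 7.58 CPM in subgroup 2, and missed the threshold in the fit of 20 libraries (log2 fold change 4.25 ± 1.45, adjusted p = 0.055).

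**Figure D4:**
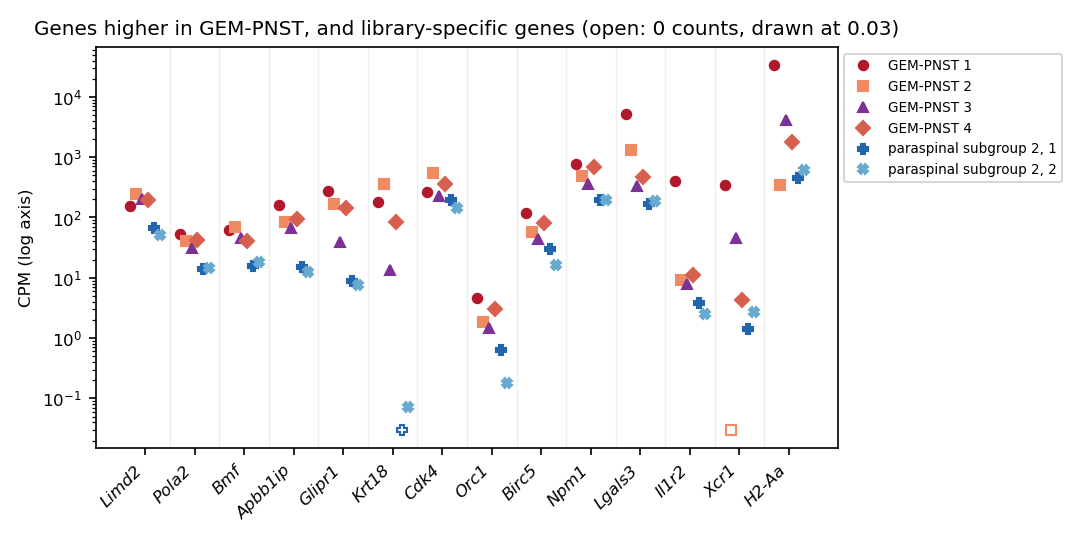
CPM on a log axis of 14 genes, some higher in GEM-PNST and some highest in 1 GEM-PNST library. There is 1 point for each of the 4 GEM-PNST libraries and each of the 2 subgroup 2 libraries. Glipr1, Xcr1 and H2-Aa did not pass the threshold in the fit of 20 libraries. Limd2, Pola2, Bmf and Npm1 are above subgroup 2 in all 4 GEM-PNST libraries, while Il1r2, Xcr1 and H2-Aa are highest in library 1 (401, 340 and 33410 CPM).

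Krt18, a keratin of simple epithelia, had 178, 365, 13.4 and 85.5 CPM in GEM-PNST, against 0 and 0.0733 CPM in subgroup 2. The 2 subgroup 2 libraries held 2 counts between them, and the ratio of GEM-PNST to subgroup 2 was 3893 (95% counting interval 1078 to 32152). Its partner Krt8 had 1.34, 8.34, 10.1 and 716 CPM in GEM-PNST, against 0 and 0.183 CPM in subgroup 2 (log2 fold change 10.73 ± 2.84, adjusted p = 0.0183), and nearly all of it came from library 4. Its log2 fold change was 5.98 without library 4. For Krt8, adjusted p was 0.0576 without GEM-PNST library 4, 0.155 and 0.13 without subgroup 2 libraries 1 and 2 and 0.00688 to 0.0123 without each other library. The order of the libraries thus differed between the partners, and keratin genes have near-identical copies whose reads the counting could split. Other epithelial genes went the opposite way: E-cadherin (Cdh1) had 1.95, 1.08, 15.3 and 0.643 CPM in GEM-PNST, against 56.8 and 53 CPM in subgroup 2 (log2 fold change -3.51 ± 0.871, adjusted p = 0.0118), and its log2 fold change was -5.47 without library 3. For Cdh1, adjusted p was 0.0552 and 0.0543 without subgroup 2 libraries 1 and 2 and 4.06e-05 to 0.0292 without each other library. Keratin 19 (Krt19) had 0.0672, 1.67, 1.48 and 0.0804 CPM in GEM-PNST, against 5.16 and 12.9 CPM in subgroup 2 (log2 fold change -3.41 ± 1.08, adjusted p = 0.0416). For Krt19, adjusted p was 0.0726 and 0.0696 without GEM-PNST libraries 1 and 4, 0.079 and 0.297 without subgroup 2 libraries 1 and 2 and 0.0308 to 0.0336 without each other library. Of 18 epithelial genes tested 2 rose and 2 fell, with a median of 1.62, of 1.03 without GEM-PNST library 1, of 1.22 with genes at 0 counts in subgroup 2 set to their bound, and of -0.33 without GEM-PNST library 3, the library with the salivary transcripts. The summed CPM of the salivary gland list was 8.87, 16.1, 36689 and 28.6 in GEM-PNST, against 49.1 and 49.7 in subgroup 2.

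Among the largest gains of moderately or highly expressed genes, many were highest in library 1. The urea transporter Slc14a1 had 62.8, 387, 6.63 and 189 CPM in GEM-PNST, against 3.55 and 4.29 CPM in subgroup 2 (log2 fold change 5.36 ± 1.41, adjusted p = 0.0168), highest in library 2. For Slc14a1, adjusted p was 0.146 and 0.149 without subgroup 2 libraries 1 and 2 and 0.00221 to 0.0269 without each other library. Galectin 3 (Lgals3), a secreted lectin of macrophages and many tumors, had 5094, 1337, 332 and 461 CPM in GEM-PNST, against 164 and 191 CPM in subgroup 2 (log2 fold change 3.35 ± 0.979, adjusted p = 0.0287), with a log2 fold change of 1.99 without library 1. For Lgals3, adjusted p was 0.0691 without GEM-PNST library 1, 0.189 and 0.191 without subgroup 2 libraries 1 and 2 and 0.00745 to 0.0293 without each other library. The glucocorticoid-responsive chaperone Fkbp5 had 576, 258, 125 and 239.9 CPM in GEM-PNST, against 33 and 36.8 CPM in subgroup 2 (log2 fold change 3.10 ± 0.964, adjusted p = 0.0377). For Fkbp5, adjusted p was 0.0723 without GEM-PNST library 1, 0.212 and 0.22 without subgroup 2 libraries 1 and 2 and 0.0197 to 0.0413 without each other library. Il1r2, the decoy receptor of interleukin 1, had 401, 9.31, 7.77 and 10.9 CPM in GEM-PNST, against 3.8 and 2.53 CPM in subgroup 2 (log2 fold change 5.08 ± 1.59, adjusted p = 0.0394), almost all in library 1, with a log2 fold change of 1.56 without it. For Il1r2, adjusted p was 0.241 without GEM-PNST library 1, 0.193 and 0.26 without subgroup 2 libraries 1 and 2 and 0.0137 to 0.0248 without each other library. The uridine phosphorylase Upp1 had 11.9, 259, 13.7 and 28.4 CPM in GEM-PNST, against 7.11 and 4.84 CPM in subgroup 2 (log2 fold change 3.71 ± 1.07, adjusted p = 0.0268), highest in library 2, with 1.59 without it. For Upp1, adjusted p was 0.0614 without GEM-PNST library 2, 0.148 and 0.222 without subgroup 2 libraries 1 and 2 and 0.00755 to 0.0213 without each other library. Ifi205, Dpep2, Zmynd15, Pkp3, Cd300a, Rnf144b, Cep152 and Sigirr were all highest in GEM-PNST library 1, whose summed CPM of the MHC and antigen presentation list was 155710, against 5023, 28251 and 13977 in libraries 2 to 4 and 5784 and 6966 in subgroup 2. The part of these dendritic cell transcripts in the gains was not tested. Without library 1, adjusted p was below 0.05 for Cd300a and Rnf144b (0.0227 and 0.00826) and between 0.0683 and 0.155 for the other 6, and without a subgroup 2 library it was between 0.0522 and 0.267 for the 8 genes.

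Immune gene levels spread widely over the GEM-PNST libraries. Of 23 genes of T and NK cells 3 rose and 0 fell (median 4.22), and 23 of the 24 measured were highest in GEM-PNST library 3. Without library 3 the median was 2.41, and DESeq2 called 14 of the list higher. Granzyme B (Gzmb), a cytotoxic protease, had 3.76, 0.161, 10.2 and 1.53 CPM in GEM-PNST, against 0 and 0 CPM in subgroup 2, at least 68.5-fold higher over the group (adjusted p = 0.0146). For Gzmb, adjusted p was 0.11 and 0.141 without subgroup 2 libraries 1 and 2 and 0.0068 to 0.0187 without each other library. The interleukin 2 receptor chain Il2rb had 2.22, 1.08, 44.1 and 11.4 CPM in GEM-PNST, against 0.535 and 0.22 CPM in subgroup 2 (log2 fold change 5.27 ± 1.47, adjusted p = 0.0229). For Il2rb, adjusted p was 0.12 and 0.211 without subgroup 2 libraries 1 and 2 and 0.0101 to 0.0309 without each other library. Without GEM-PNST library 2, 7 members rose, and without either subgroup 2 library 0. Cd3e, of the T cell receptor complex, had 1.14, 0.108, 24.9 and 6.11 CPM in GEM-PNST, against 0.243 and 0.476 CPM in subgroup 2, and Cd8a had 10.2, 0.323, 25.2 and 12 CPM in GEM-PNST, against 0.0973 and 0.476 CPM in subgroup 2, neither passing, with GEM-PNST library 2 below or between the subgroup 2 libraries. Of 14 genes of B and plasma cells 2 rose (median 4.42), Cd22 and Derl3. Their median was 2.83 without GEM-PNST library 1 and 1.74 without library 4, and DESeq2 called 4 of them higher. Cd22, an inhibitory receptor of B cells, had 300.1, 1.4, 7.67 and 19.5 CPM in GEM-PNST, against 1.8 and 1.43 CPM in subgroup 2 (log2 fold change 5.66 ± 1.79, adjusted p = 0.041), with 2.54 without library 1. For Cd22, adjusted p was 0.139 without GEM-PNST library 1, 0.208 and 0.256 without subgroup 2 libraries 1 and 2 and 0.0158 to 0.0349 without each other library. Derl3, of the protein folding machinery of plasma cells, had 48.1, 4.47, 7.22 and 3.06 CPM in GEM-PNST, against 0.438 and 0.33 CPM in subgroup 2 (log2 fold change 5.33 ± 1.47, adjusted p = 0.0214). For Derl3, adjusted p was 0.146 and 0.191 without subgroup 2 libraries 1 and 2 and 0.0131 to 0.0431 without each other library. Cd79a, of the B cell receptor complex, had 0.403, 0.269, 5.69 and 32.4 CPM in GEM-PNST, against 1.36 and 1.54 CPM in subgroup 2.

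No macrophage, mast cell, neutrophil, MHC or interferon gene of the lists passed by edgeR with TMM factors and all libraries, although 24 of 25 macrophage and 19 of 20 MHC genes had a positive log2 fold change. Over all genes 5491 had an unadjusted p below 0.05. Under RLE factors 2 MHC genes were higher, and without GEM-PNST library 2, 5, while without library 4, 3 mast cell and 2 neutrophil genes were lower. By DESeq2, 3 macrophage genes, 11 MHC genes, 3 interferon genes and 1 mast cell gene were higher and 1 macrophage gene was lower, and by limma-voom 1 MHC gene was higher. Csf1r, the receptor that macrophages depend on, had 151, 131, 375 and 762 CPM in GEM-PNST, against 219.8 and 210.0 CPM in subgroup 2 (adjusted p = 0.647), highest in library 4. MHC genes were highest in library 1 for 15 of 20 and lowest in library 2 for all 20. Beside 9.44% of all genes tested, 3 of 33 chemokine genes fell and 0 rose. Among them Ccl24, an eosinophil attractant, had 0.269, 0.0538, 0.594 and 0.563 CPM in GEM-PNST, against 35.4 and 1.76 CPM in subgroup 2 (log2 fold change -5.63 ± 1.30, adjusted p = 0.00797), with -2.20 without subgroup 2 library 1. For Ccl24, adjusted p was 0.381 without subgroup 2 library 1 and 0.00658 to 0.0201 without each other library.

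Of 41 collagen genes 6 fell, beside 9.44% of all genes tested, and 0 rose (median -0.80). Of the 41, 37 had a negative log2 fold change. The median was -0.45 without GEM-PNST library 1 and -1.65 without library 3. Col9a2, a collagen of cartilage, had 0, 0.323, 0.148 and 0.161 CPM in GEM-PNST, against 71.3 and 88.7 CPM in subgroup 2 (log2 fold change -8.87 ± 0.622, adjusted p = 3.57e-07). Col2a1, the main collagen of cartilage, had 0.0672, 0.269, 1.24 and 0 CPM in GEM-PNST, against 114 and 109 CPM in subgroup 2 (log2 fold change -8.02 ± 1.01, adjusted p = 7.26e-05), and Col26a1 had 0, 0.484, 1.58 and 0 CPM in GEM-PNST, against 68.6 and 57.6 CPM in subgroup 2 (log2 fold change -6.83 ± 0.95, adjusted p = 0.000147). All 3 calls were kept. The fibrillar chain Col1a1 had 71.4, 419.8, 6171 and 1509 CPM in GEM-PNST, against 3664 and 1927 CPM in subgroup 2 (adjusted p = 0.815), spanning from far below to above subgroup 2. The summed CPM of the collagens was 2160, 8662, 31442 and 14453 in GEM-PNST, against 23178 and 16265 in subgroup 2. Without library 3, 14 collagen genes fell, and without subgroup 2 libraries 1 and 2, 4 and 3.

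Of 30 integrin and laminin genes 4 fell, beside 9.44% of all genes tested, and 0 rose. Itgb8, the integrin chain that activates latent TGF-beta, had 0, 1.08, 0.643 and 0.804 CPM in GEM-PNST, against 9.44 and 7.07 CPM in subgroup 2 (log2 fold change -3.68 ± 0.744, adjusted p = 0.00316). Lamc3, a laminin chain, had 0.134, 1.4, 0.99 and 0.322 CPM in GEM-PNST, against 8.03 and 6.82 CPM in subgroup 2 (log2 fold change -3.35 ± 0.682, adjusted p = 0.00328). Both calls were kept, and 7 members fell without library 3 and 2 without either subgroup 2 library. Of 34 genes of the metalloproteinase and plasminogen system 2 rose and 2 fell, 4 rose without GEM-PNST library 1 or 3, and 0 rose without library 2 or either subgroup 2 library. Urokinase (Plau), which activates plasminogen, had 37.2, 463, 144 and 161 CPM in GEM-PNST, against 36 and 23.3 CPM in subgroup 2 (log2 fold change 2.76 ± 0.846, adjusted p = 0.0354), highest in library 2. For Plau, adjusted p was 0.071 without GEM-PNST library 2, 0.154 and 0.263 without subgroup 2 libraries 1 and 2 and 0.0124 to 0.0402 without each other library. The protease gene Mmp10 had 0.403, 43, 0.594 and 38.9 CPM in GEM-PNST, against 0 and 0 CPM in subgroup 2, at least 313-fold higher, with libraries 2 and 4 far above libraries 1 and 3. Adjusted p for Mmp10 was 0.069 and 0.0875 without subgroup 2 libraries 1 and 2, and it did not pass the filter without GEM-PNST library 2 or 4. Mmp24, a membrane protease of neurons, had 0, 0.161, 0.099 and 0 CPM in GEM-PNST, against 9.59 and 8.79 CPM in subgroup 2 (log2 fold change -6.85 ± 1.09, adjusted p = 0.000495), and its call was kept. Of the mesenchymal and matricellular list 1 of 24 rose, the transcription factor Prrx1, with 9.68, 388, 86.5 and 191 CPM in GEM-PNST, against 17.1 and 23.6 CPM in subgroup 2 (log2 fold change 3.05 ± 0.952, adjusted p = 0.0387). For Prrx1, adjusted p was 0.0741 and 0.0502 without GEM-PNST libraries 2 and 4, 0.232 and 0.201 without subgroup 2 libraries 1 and 2 and 0.00397 to 0.0232 without each other library.

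Hedgehog and WNT signalling genes fell where they passed. Of 28 tested 8 fell and 0 rose (median -0.69), and Shh, Wnt6, Wif1, Nkd1 and Rspo2 were kept. Their median was -2.36 without library 3, -0.32 without library 1, -0.44 without library 4 and -0.39 without subgroup 2 library 1. Nkd1, a feedback inhibitor of WNT signalling, had 1.01, 0, 3.12 and 0.804 CPM in GEM-PNST, against 14.6 and 22.6 CPM in subgroup 2 (log2 fold change -3.90 ± 0.796, adjusted p = 0.00342), and the WNT amplifier Rspo2 had 0, 0.108, 0 and 0.402 CPM in GEM-PNST, against 8.32 and 7.44 CPM in subgroup 2 (log2 fold change -6.02 ± 1.30, adjusted p = 0.00495). Ptch1, the hedgehog receptor and itself a hedgehog target, had 0.672, 1.35, 0.99 and 2.41 CPM in GEM-PNST, against 5.5 and 6.96 CPM in subgroup 2 (log2 fold change -2.21 ± 0.498, adjusted p = 0.00664). For Ptch1, adjusted p was 0.0768 without subgroup 2 library 2 and 0.00341 to 0.0281 without each other library. Without library 3, 12 members fell, and without subgroup 2 libraries 1 and 2, 6 and 5.

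Of 39 receptor tyrosine kinases and ligands 1 rose and 5 fell (median -0.32), beside 5.31% and 9.44% of all genes tested. The median was 0.08 without GEM-PNST library 1 and -0.00071 without subgroup 2 library 2. Ret, the receptor of glial neurotrophic factors, had 0.672, 0.108, 2.42 and 2.57 CPM in GEM-PNST, against 148 and 136 CPM in subgroup 2 (log2 fold change -6.62 ± 1.18, adjusted p = 0.00115), and Tgfa, a ligand of the EGF receptor, had 0.202, 0.215, 0.891 and 0.563 CPM in GEM-PNST, against 9.54 and 8.24 CPM in subgroup 2 (log2 fold change -4.21 ± 0.885, adjusted p = 0.0042). Both calls were kept. Erbb2, the partner of Erbb3, had 1.95, 28.7, 30.3 and 15.4 CPM in GEM-PNST, against 85.1 and 77.7 CPM in subgroup 2 (log2 fold change -2.09 ± 0.604, adjusted p = 0.0273). For Erbb2, adjusted p was 0.0519 without GEM-PNST library 4, 0.141 and 0.128 without subgroup 2 libraries 1 and 2 and 0.0117 to 0.0227 without each other library. Hepatocyte growth factor (Hgf), the ligand of Met, had 0.269, 34.2, 2.42 and 16.2 CPM in GEM-PNST, against 0.584 and 0.33 CPM in subgroup 2 (log2 fold change 4.85 ± 1.23, adjusted p = 0.0137), with libraries 2 and 4 high and library 1 below subgroup 2. For Hgf, adjusted p was 0.094 and 0.159 without subgroup 2 libraries 1 and 2 and 0.000836 to 0.0226 without each other library. Met had 30.6, 49.9, 8.46 and 81 CPM in GEM-PNST, against 8.47 and 9.6 CPM in subgroup 2 (adjusted p = 0.0762). Without library 3, 11 members fell, and without either subgroup 2 library 3 fell and 0 rose.

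Of 24 regulators of RAS 3 fell, beside 9.44% of all genes tested, and 0 rose. Their median was 0.02, and -0.044 to 0.24 with each library left out in turn. Nf1 and Rasal2, both GTPase-activating proteins that switch RAS off, were among those that fell. Rasal2 had 9.81, 12.9, 13.4 and 16.9 CPM in GEM-PNST, against 38.1 and 49.5 CPM in subgroup 2 (log2 fold change -1.73 ± 0.411, adjusted p = 0.00927). For Rasal2, adjusted p was 0.111 without subgroup 2 library 2 and 0.0102 to 0.0319 without each other library. Under RLE factors 2 of the list fell, and without either subgroup 2 library 1 fell. Of 21 genes of ERK output 3 rose and 1 fell. The ERK phosphatase Dusp2 had 36, 10.4, 31.2 and 18.4 CPM in GEM-PNST, against 3.36 and 1.32 CPM in subgroup 2 (log2 fold change 3.36 ± 0.81, adjusted p = 0.01). For Dusp2, adjusted p was 0.147 without subgroup 2 library 2 and 0.00636 to 0.039 without each other library. Dusp7, another ERK phosphatase, had 94.7, 130.2, 70.8 and 72.5 CPM in GEM-PNST, against 34.3 and 34.2 CPM in subgroup 2 (log2 fold change 1.43 ± 0.351, adjusted p = 0.0112). For Dusp7, adjusted p was 0.0945 and 0.11 without subgroup 2 libraries 1 and 2 and 0.00574 to 0.0221 without each other library. Dusp6, the feedback phosphatase most often read as ERK output, had 63.8, 107, 85.8 and 165 CPM in GEM-PNST, against 87.3 and 122 CPM in subgroup 2 (adjusted p = 1), and Spry4 had 16.1, 95.1, 20.5 and 62.3 CPM in GEM-PNST, against 59.4 and 77.2 CPM in subgroup 2 (adjusted p = 0.589). Neither passed, and the groups overlapped in both.

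Developmental regulators split by library. Of 18 neural crest transcription factors 2 fell and 0 rose, the zinc finger factors Zic1, with 0, 0, 0.594 and 0 CPM in GEM-PNST, against 9.83 and 10.1 CPM in subgroup 2 (log2 fold change -5.87 ± 1.20, adjusted p = 0.0034), and Zic2, with 0.134, 0.161, 0.0495 and 0 CPM in GEM-PNST, against 3.02 and 4.62 CPM in subgroup 2 (log2 fold change -5.31 ± 1.00, adjusted p = 0.00181), and both calls were kept. Without library 3 the log2 fold change of Zic1 was -10.30, and 6 members fell. Of 27 Hox genes 2 rose and 1 fell (median 1.56, or 1.26 with genes at 0 counts in subgroup 2 set to their bound and 0.31 without library 4). Hoxc6 had 1.68, 0.592, 1.19 and 77.1 CPM in GEM-PNST, against 0.0487 and 0.22 CPM in subgroup 2 (log2 fold change 7.09 ± 2.06, adjusted p = 0.0277), nearly all in library 4, with 2.98 without it. For Hoxc6, adjusted p was 0.0649 without GEM-PNST library 4, 0.196 and 0.164 without subgroup 2 libraries 1 and 2 and 0.0109 to 0.0201 without each other library. Library 4 was the highest GEM-PNST library in 19 of 33 Hox genes. Without GEM-PNST libraries 1 and 3 together 11 Hox genes rose, and without library 4 or either subgroup 2 library 0 did.

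Hmga2, an oncofetal chromatin protein silent in most adult tissue, had 0.0672, 634, 26.2 and 419 CPM in GEM-PNST, against 1.17 and 1.47 CPM in subgroup 2 (log2 fold change 7.67 ± 1.82, adjusted p = 0.00927). For Hmga2, adjusted p was 0.103 and 0.11 without subgroup 2 libraries 1 and 2 and 7.88e-05 to 0.0143 without each other library. Libraries 2 and 4 were highest, library 3 lower, and library 1 below subgroup 2, so the groups overlapped. The receptor gene Pdgfra was also highest in libraries 2 and 4 and lowest in library 1, with 0.0672, 548, 74.9 and 631 CPM in GEM-PNST, against 71.3 and 79.4 CPM in subgroup 2 (adjusted p = 0.309). Dlk1, an imprinted gene of fetal tissue, had 5.58, 8.67, 4.8 and 371 CPM in GEM-PNST, against 0.584 and 0.403 CPM in subgroup 2 (log2 fold change 7.61 ± 2.12, adjusted p = 0.0229), with 3.67 without library 4. For Dlk1, adjusted p was 0.0876 without GEM-PNST library 4, 0.156 and 0.199 without subgroup 2 libraries 1 and 2 and 0.00788 to 0.0146 without each other library. The imprinted Peg3 fell, with 0.0672, 0.215, 0.792 and 0.804 CPM in GEM-PNST, against 4.96 and 2.64 CPM in subgroup 2 (log2 fold change -3.00 ± 0.742, adjusted p = 0.0117). For Peg3, adjusted p was 0.12 without subgroup 2 library 1 and 0.00776 to 0.0283 without each other library. Of the 18 oncofetal and imprinted genes 2 rose and 2 fell. Of 26 Polycomb and SWI/SNF genes 1 rose and 0 fell (median 0.35), with 7 higher without GEM-PNST library 3, 4 without library 2 and 0 without library 4 or either subgroup 2 library. The Polycomb methyltransferase Ezh2 had 57, 42.9, 29.7 and 36 CPM in GEM-PNST, against 23.5 and 17 CPM in subgroup 2 (adjusted p = 0.0877), higher in every GEM-PNST library without passing.

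Of 28 genes of glycolysis and the hypoxia response 3 rose and 1 fell (median 0.72, or 0.44 without library 2), and library 2 was the highest GEM-PNST library in 19 of them. Carbonic anhydrase 9 (Car9), a target of hypoxia-inducible factor, had 11.3, 36.6, 2.33 and 2.57 CPM in GEM-PNST, against 0.633 and 0.879 CPM in subgroup 2 (log2 fold change 4.11 ± 0.996, adjusted p = 0.0103). For Car9, adjusted p was 0.117 and 0.102 without subgroup 2 libraries 1 and 2 and 0.0018 to 0.0159 without each other library. The prolyl hydroxylase Egln3, another such target, had 22.2, 208, 4.6 and 19.4 CPM in GEM-PNST, against 5.5 and 5.5 CPM in subgroup 2 (log2 fold change 3.53 ± 1.02, adjusted p = 0.0271), with 1.49 without library 2. For Egln3, adjusted p was 0.0512 without GEM-PNST library 2, 0.17 and 0.193 without subgroup 2 libraries 1 and 2 and 0.00241 to 0.0196 without each other library. Ndrg1, which is hypoxia-induced and is also abundant in myelinating Schwann cells, had 149, 168, 123 and 53.5 CPM in GEM-PNST, against 602 and 910.0 CPM in subgroup 2, and fell (log2 fold change -2.61 ± 0.495, adjusted p = 0.00184), a call that was kept. Without library 3, 11 members rose, without library 2, 1, and without either subgroup 2 library 0. Of the YAP and TEAD list 1 of 16 rose, which was Birc5, of the senescence secretory factors 1 of 23, which was Hgf, and of the pericyte list 1 of 13 fell, the adhesion gene Mcam (log2 fold change -1.81 ± 0.597, adjusted p = 0.0488). For Mcam, adjusted p was 0.0987, 0.0586 and 0.0736 without GEM-PNST libraries 1, 2 and 4, 0.211 and 0.191 without subgroup 2 libraries 1 and 2 and 0.00477 without the other library, and under RLE factors it was 0.0508. No oxidative phosphorylation gene of 24 passed (median 0.09, and -0.076 to 0.19 with each library left out in turn), nor did any endothelial, skeletal muscle or adipocyte gene by edgeR, while DESeq2 called 1 adipocyte gene lower.

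The change per chromosome was computed as the median over expressed genes (9988 genes) of log2 CPM in each GEM-PNST library minus the mean of subgroup 2. Over all genes it was 0.22, 0.22, 0.07 and 0.11 in GEM-PNST libraries 1 to 4. Library 2 stood out on chromosome 8 with 0.79, where 73.31% of 562 genes lay above that library's own median, and on chromosome 6 with 0.48. Library 1 was highest on chromosomes 17 (0.79), 7 (0.69), 15 (0.63) and 12 (0.58). Library 3 reached 0.29 on chromosome 17 and library 4 0.32 on chromosome 13. The 2 subgroup 2 libraries stayed within 0.05 of their own mean on every chromosome. That mean is the reference, so their values mirror each other and are no independent measure of the spread. Of 877 genes tested on chromosome 8, 73 rose (8.32%), beside 5.31% of all genes. These medians describe transcript levels, and DNA copy number was not measured here.

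**Figure D5:**
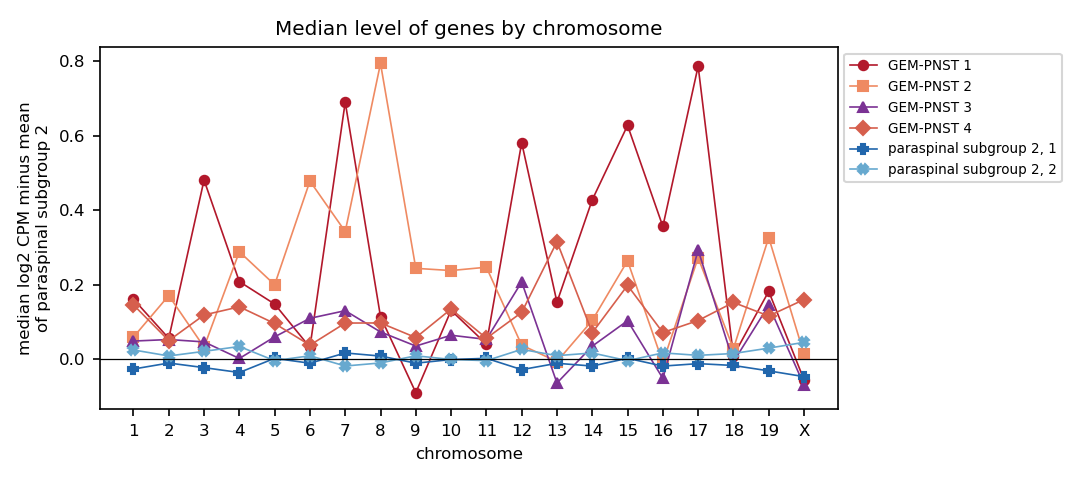
Median log2 difference per chromosome of each GEM-PNST library and each subgroup 2 library from the mean of subgroup 2, over 9988 expressed genes. GEM-PNST library 2 is high on chromosome 8 (0.79) and library 1 on chromosome 17 (0.79). The subgroup 2 libraries, whose mean is the reference, mirror each other near 0.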

How the data were processed

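RNA-seq of bulk mouse tumors was measured in 20 libraries made with an RNeasy kit and Nextera XT, per the labels' protocols. The authors deposited 1 table of raw counts per gene; HISAT2, TopHat, featureCounts and mm10 appear in the submitters' processing notes, and the annotation and strand setting are not given in the sources used here. Members, lists and tests were chosen with earlier results of these data known. Groups came from titles, and 0 sample columns were left unused.

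From these counts, genes were filtered with filterByExpr over 4 groups, scaled by TMM and tested with edgeR 4.0.16 (quasi-likelihood, robust, 20 libraries, R 4.3.3), with Benjamini-Hochberg adjustment over all genes tested and a threshold of 0.05. CPM uses TMM-scaled totals; factors were 0.670 to 1.03 in GEM-PNST and 1.11 to 1.12 in subgroup 2. Per-library log2 values use a prior count of 2. A gene at 0 in a group was set to a floor of 3 counts over that group. Ratios with 1 to 3 counts have exact 95% intervals for counting error only. DESeq2 1.42.0, limma 3.58.1 (voom with sample weights), RLE factors, other filters, fits of fewer libraries, a 2-fold minimum, a replicate block and leaving out each library were alternatives. Fits without GEM-PNST libraries 1 and 3 together and without Rn45s were added after the data were seen.

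Named genes were Nf1, Cdkn2a, Cdkn2b, the 15 largest non-overlapping changes each way (mean log2 CPM 3 or more), and for each of 45 lists the 4 called genes with the smallest p (or 2 genes where none passed). Other genes were named as list markers after their values were seen. Some genes that this rule names are counted in their lists and not reported here. Gene coordinates and promoters are RefSeq's for GRCm38.p6. On simulated counts for this comparison (16998 genes), 2 of 100 genes changed 2-fold and 46 of 100 changed 4-fold were recovered, with 6 unchanged genes called. The changed genes were drawn only from those above a minimum mean CPM over the libraries compared, so these rates do not cover genes of low level. Deviations of same-numbered GEM-PNST and subgroup 2 libraries from their group means had correlations of -0.0655 and -0.025. The 2 subgroup 2 deviations mirror each other, so these values cannot show whether the numbers pair samples. The labels do not say.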

Additional observations from a re-analysis of the deposited data

Results flagged for a closer look

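A GEM-PNST library was far from the other 3 in 6 of 45 list means and in 16 of 152 named genes. Chance flags about 1 in 20 such groups of 4 where the values are not tied. For Ugt8a, Stmn3, Trpv1, Wif1, Zic1 and Hoxd1 the other 3 libraries were tied without counts, so any count in the remaining library set the flag. The number of flagged genes therefore cannot be compared with that rate. Values are log2 CPM, with the range of the other 3 GEM-PNST libraries, and the reasons were not tested.

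Library 3 was high in the mean of the salivary gland list (5.14, others -2.23 to -1.71) and of the epithelium and keratinocyte list (1.55, others -0.659 to -0.342). It was also high for the Schwann cell genes Pmp22 (8.13, others 5.74 to 6.10) and Ugt8a (-1.64, others at 0 counts), the glial transporter Slc1a3 (2.50, others -0.717 to -0.329), the perineurial gene Tenm2 (1.99, others -3.01 to -2.29) and the fibroblast gene Gpc3 (5.65, others -1.12 to -0.238). Wif1 (-0.292), Zic1 (-0.479), Stmn3 (-1.64) and Trpv1 (-2.53) had counts in library 3 and 0 in the other 3. For these 9 genes library 3 still lay below both subgroup 2 libraries.

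Library 1 was low in the mean of the receptor tyrosine kinase list (0.848, others 3.03 to 3.31), the metalloproteinase and plasminogen list (2.24, others 4.38 to 4.53) and the senescence secretory list (0.781, others 3.50 to 4), and for Myog (-3.01, others 0.226 to 0.813) and Phlda1 (4.20, others 5.91 to 6). It was high for Il1r2 (8.65, others 2.98 to 3.47), Cep152 (7.44, others 3.36 to 4.04) and Wdr43 (6.75, others 6.04 to 6.15).

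Library 4 was high in the mean of the neutrophil list (3.48, others 0.311 to 0.696) and for Dlk1 (8.54, others 2.30 to 3.14). Library 2 was the only GEM-PNST library with counts of Hoxd1 (-0.0217).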

How the results depend on the processing

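Against 2546 genes called (916 higher, 1630 lower), DESeq2 called 4432 (2509 higher, 1923 lower) and limma-voom 1816 (875 and 941). The fit of 8 libraries called 439 (6 and 433), the fit of 6 libraries 60 (0 and 60) and a 2-fold minimum 986 (66 and 920). The fit with the replicate block called 352 (19 and 333), and the labels do not say whether its numbers pair the samples. RLE factors, no filter, a stricter filter and removal of Rn45s moved each count by less than 1.5 times. Without GEM-PNST libraries 1 and 3 together 1576 were higher. With each library left out in turn, calls ranged from 859 to 4102, higher calls from 45 to 1798 and lower calls from 814 to 2304.

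Of 132 named genes called, 130 kept the call under RLE factors, 93 by limma-voom, 34 in the fit of 8 libraries, 7 in the fit of 6 and 35 with the replicate block, and all that DESeq2 tested (121) kept theirs. Without subgroup 2 libraries 1 and 2, 70 and 60 kept it, and without GEM-PNST libraries 1 to 4, 111, 120, 131 and 115. No called gene changed sign. The uncalled adipocyte gene Ucp1 had a log2 fold change of -5.19 and of -6.87 to 1.41 with each library left out, reversed without subgroup 2 library 2, and passed in none of these fits.

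With 2 libraries of subgroup 2 and a wide spread in GEM-PNST, a gene that did not pass is not shown to be equal. On simulated counts 2 of 100 changes of 2-fold were recovered, all placed in genes above a minimum mean CPM. That simulation gave all groups the same spread per gene and changed few genes, which makes the adjusted threshold stricter than in the data. Of the 2546 genes called in the data, 2249 had changed 2-fold or more. A floor of 3 counts in 1 library stood for 0.148 to 0.241 CPM in GEM-PNST and 0.110 to 0.146 CPM in subgroup 2. The neurofibroma libraries, from other sequencing runs, enter the spread of the fit of 20 libraries, and the cause of the fewer calls in smaller fits was not tested.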
